A study of Homo sapiens with 5 samples.

Results

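The genes described here are the human translation initiation factor genes, taken from the table of poly(A) sites as every gene whose symbol starts with EIF and a digit from 1 to 6. Symbols ending in P, or in P and digits, were left out, which removed 28 names, most of them pseudogenes but also the eIF4E-binding protein genes EIF4EBP1 and EIF4EBP2. This gave 55 of 29792 genes, of which 2 are antisense RNAs (EIF2B5-AS1 and EIF3J-AS1). The symbols also take in the kinases of eIF2, the elongation factor genes EIF5A and EIF5A2, the exon junction helicase EIF4A3 and the eIF4E transporter EIF4ENIF1. Poly(A) site reads were counted in HEK293T cells, an established human embryonic kidney line, in 1 library of wild type control cells, 2 cell lines with a knockout (KO) of CFIm59 and 2 with a KO of CFIm68, the edits made with CRISPR/Cas9 and no treatment named. CFIm59 (gene CPSF7) and CFIm68 (gene CPSF6) are the larger subunits of cleavage factor Im, and the comparisons ask how poly(A) site use and transcript level of the initiation factor genes differ when either is missing. The labels call the lines of a genotype separate cell lines, do not say whether each grew from 1 cell, and do not give the edited position. The control is a single library, so it has no spread of its own.

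Initiation begins when eIF2, bound to GTP and the initiator tRNA, joins eIF1, eIF1A, eIF3 and eIF5 on the small ribosomal subunit. The eIF4 factors bind the cap, unwind the 5′ end of the mRNA and bring it to this complex, which scans to a start codon, where eIF5 and eIF5B act in GTP hydrolysis and subunit joining. Most human genes have several poly(A) sites, and cleavage factor Im binds RNA upstream of such sites and takes part in choosing among them. Where both sites lie in the same last exon, a proximal site gives a shorter 3′ untranslated region and a distal site a longer one.

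The libraries held from 1673687 to 2924266 reads, and the initiation factor genes took from 13564 to 25174 reads, or 0.785% to 0.914% of a library. From 95.9% to 96.9% of these lay at last exon sites. All 7 HEK293T lineage genes checked had 3 or more reads in each library, with a summed level of 728 to 1273 CPM (counts rescaled by the library total). Of 5 blood markers 1 to 3 had a read (0.597 to 6.26 CPM summed, HBB at 0 throughout), and of 4 fibroblast markers 1 to 3 (8.96 to 17.0 CPM, COL1A2 at 0 throughout). The hepatocyte genes ALB and APOA1 summed to 24.3 CPM in the control library, 0.597 and 3.87 CPM in the CFIm59 KO lines and 0 in both CFIm68 KO lines, and whether this bears on the results was not tested. Levels of single genes are CPM after TMM scaling, which evens out differences in library makeup. CPSF6 fell from 119 CPM to 46.5 ± 1.57 CPM (SD, n = 2 lines) in the CFIm68 KO (adjusted p = 0.000511). CPSF7 measured 59.4 CPM in the control against 61.6 ± 9.08 CPM with the CFIm59 KO (adjusted p = 0.947), so reads at its 3′ end do not check that label.

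For each gene the pair of sites with most reads was compared if the mean count per library reached 20 for the pair and 5 for each site. This held for 34 of the 55 genes and for 5869 genes in all. The upstream site of a pair is called proximal, and log2 values above 0 mean relatively more reads there than in the group compared with. Toward the proximal site in the CFIm68 KO against the control, 8 of the 34 genes (23.5%) changed, namely EIF1AX, EIF2AK1, EIF2S3, EIF3A, EIF3H, EIF4A2, EIF5 and EIF5B, against 25.3% of all genes tested. The share of initiation factor genes was thus near that of all genes. EIF3C alone changed toward the distal site (3.14% of all genes tested). The median log2 difference was 0.74 over the 34 genes and 0.61 over all genes, and 25 of the 34 differences were positive.

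Against the control, the CFIm59 KO gave no call toward the proximal site with edgeR's quasi-likelihood test (1.02% of all genes tested), where 1 gene had an unadjusted p under 0.05 and DESeq2 called 0. EIF3H changed toward the distal site, where the background was 5.38%. The median was −0.42 over the 34 genes and −0.34 over all genes. Between the KO groups, 17 of the 34 genes (50%) had a higher proximal share in CFIm68 KO cells, against 40.7% of all genes, and EIF3C, EIF3CL and EIF4A1 a lower one, against 6.2%. The medians were 1.20 over the 34 genes and 0.89 over all genes. Both contrasts with the control use the same control library, so an unusual control would move both. The test between the KO groups does not use it.

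**Figure D1:**
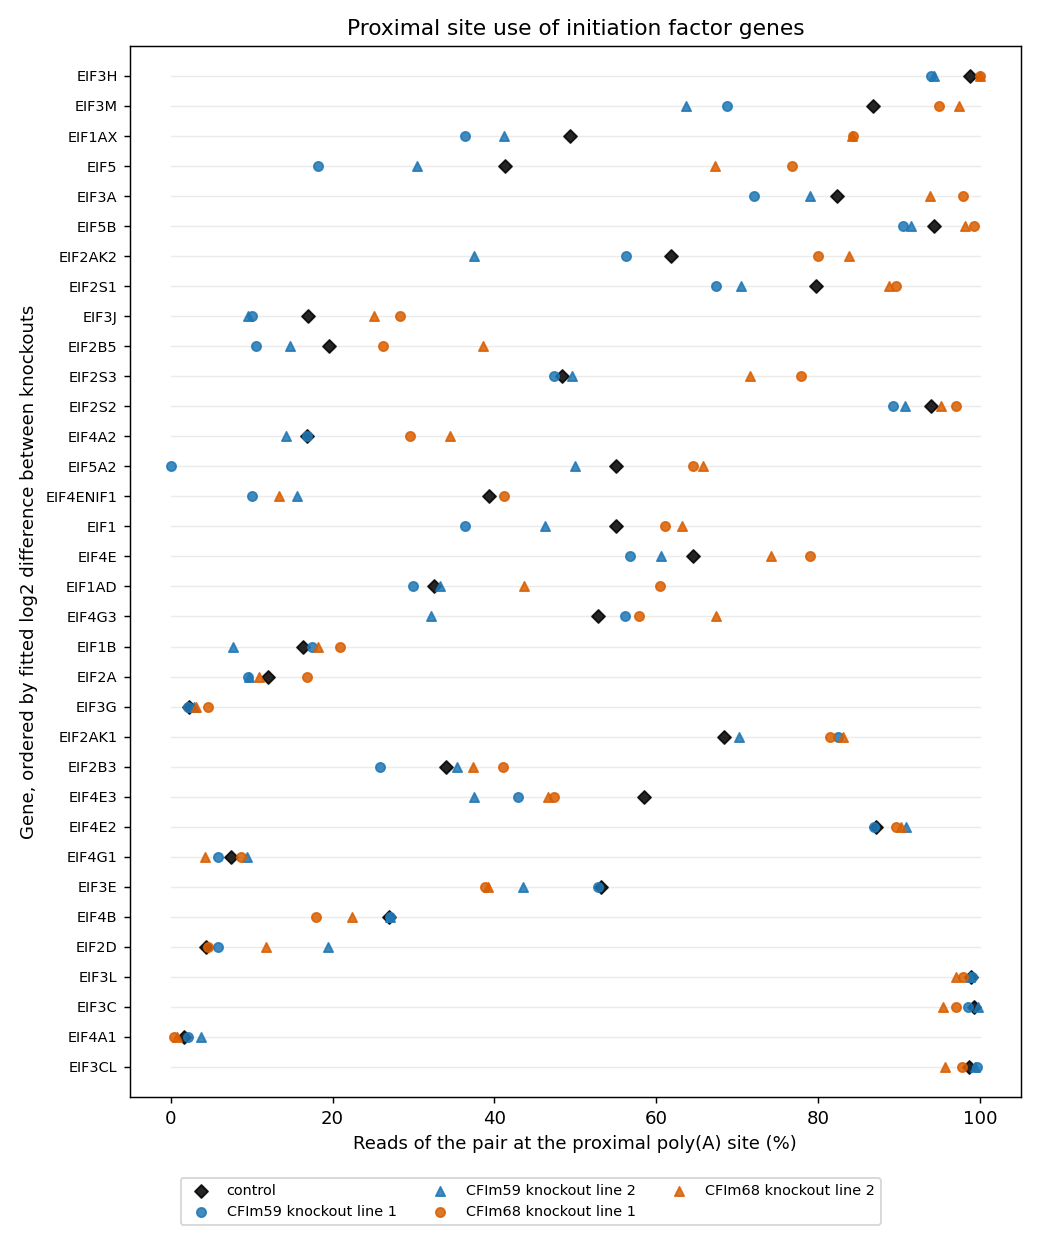
Percent of a pair's reads at the proximal poly(A) site (x axis) for the 34 initiation factor genes tested (y axis, ordered by the fitted log2 difference between the KO groups), 1 point per library. At the end of the order with the highest differences the 2 CFIm68 KO points stand to the right of the others, as for EIF1AX at 84.3% and 84.1% against 36.4% to 49.4%, and at the opposite end to the left, as for EIF3C at 97.1% and 95.4%.

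The factors that choose the start codon and join the subunits were grouped with EIF1AD, and 6 genes of this group were tested. In the CFIm68 KO 3 of the 6 changed toward the proximal site (EIF1AX, EIF5 and EIF5B), against 25.3% of all genes. With EIF1AD counted, 5 of the 6 had a higher proximal share in the CFIm68 than in the CFIm59 KO, against 40.7%. EIF1AX encodes eIF1A, which helps the small subunit scan, and its sites lie at 20145354 and 20142644 on the minus strand of chromosome X (hg19), both in the last exon and 2710 nt apart. Its proximal site took 49.4% of the pair's reads in the control (Wilson 95% interval 45.5% to 53.3%), 36.4% and 41.2% in the CFIm59 KO lines, and 84.3% and 84.1% in the CFIm68 KO lines. Both CFIm68 KO lines stood above the other 3 libraries, and both CFIm59 KO lines below the control. The log2 difference from the control was 2.45 (SE 0.38, adjusted p = 4.91e-07) in the CFIm68 KO and −0.62 (SE 0.36, adjusted p = 0.343) in the CFIm59 KO.

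EIF5, the GTPase-activating factor for eIF2, has its pair at 103807696 and 103809507 on the plus strand of chromosome 14, 1811 nt apart in the last exon. The proximal share was 41.4% in the control (35.7% to 47.2%), 18.2% and 30.5% in the CFIm59 KO lines and 76.8% and 67.2% in the CFIm68 KO lines. The groups did not overlap: CFIm68 KO lines were highest, CFIm59 KO lines lowest. The log2 difference was 1.88 (SE 0.41, adjusted p = 0.000206) in the CFIm68 KO, −1.11 (SE 0.44, adjusted p = 0.128) in the CFIm59 KO and 2.98 (SE 0.37, adjusted p = 4.36e-10) between the KO groups. With the outermost sites the CFIm68 KO gave an adjusted p of 0.296, in a range from 8.88e-07.

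EIF5B encodes the GTPase of subunit joining. Its proximal site (100016241, chromosome 2, 289 nt before the distal one) already took 94.3% of the pair's reads in the control (91.6% to 96.2%), 90.5% and 91.5% in the CFIm59 KO lines and 99.2% and 98.1% in the CFIm68 KO lines. The distal site thus had 23 control reads, and 3 and 7 reads in the CFIm68 KO lines. The log2 difference of 2.17 (SE 0.62, adjusted p = 0.00472) no longer passed without CFIm68 KO line 1 (adjusted p = 0.0735, with 0.00224 to 0.0876 over all alternatives). EIF1, which guards start codon choice, was at 55.0% in the control, 36.4% and 46.2% in the CFIm59 KO lines and 61.0% and 63.2% in the CFIm68 KO lines. It differed between the KO groups alone (log2 1.22, SE 0.30, adjusted p = 0.000432), and not without CFIm59 KO line 1 (adjusted p = 0.0608, with 2.90e-05 to 0.0608 over the alternatives). EIF1AD, whose nuclear product carries a domain like that of eIF1A, gave a log2 difference of 1.19 between the KO groups (adjusted p = 0.0310). That call was lost without CFIm59 KO line 1 (0.0994), CFIm59 KO line 2 (0.120) or CFIm68 KO line 1 (0.301), within a range of 0.00437 to 0.301.

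Among the genes of eIF2, of eIF2B, its nucleotide exchange factor, and of other tRNA-delivering factors (EIF2A and EIF2D among them), 7 pairs were tested. The 3 subunits of eIF2 are encoded by EIF2S1, EIF2S2 and EIF2S3, and all 3 had a higher proximal share in the CFIm68 KO than in the CFIm59 KO, while EIF2S3 alone passed against the control. EIF2S3, the subunit that binds GTP and tRNA, has sites at 24096086 and 24096920 on the plus strand of chromosome X. Its proximal share was 48.3% in the control (45.3% to 51.4%), 47.4% and 49.6% in the CFIm59 KO lines and 77.9% and 71.6% in the CFIm68 KO lines. The control lay between the CFIm59 KO lines, and both CFIm68 KO lines lay above them (log2 1.67, SE 0.36, adjusted p = 0.000196). With the outermost sites of the gene the adjusted p was 0.542, in a range from 2.07e-06. The log2 difference in the CFIm59 KO was 0.01 (SE 0.35, adjusted p = 0.991).

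EIF2S1, the subunit that the stress kinases phosphorylate, was at 79.8% in the control, 67.4% and 70.5% in the CFIm59 KO lines and 89.6% and 88.8% in the CFIm68 KO lines. The control stood between the groups, and the difference between the KO groups was 1.89 (SE 0.38, adjusted p = 2.54e-05). EIF2S2, the subunit that contacts eIF5 and eIF2B, was at 94.0%, then 89.3% and 90.8%, then 97.0% and 95.2% in that order, with a difference between the KO groups of 1.46 (SE 0.41, adjusted p = 0.00251). EIF2B5, the catalytic subunit of eIF2B, had 26.2% and 38.6% in the CFIm68 KO lines against 10.5% and 14.8% in the CFIm59 KO lines (adjusted p = 0.00724). It did not pass without CFIm59 KO line 1 (adjusted p = 0.0795) or CFIm68 KO line 2 (adjusted p = 0.0975), over a range of 0.00255 to 0.0975, and 5.71% of its reads lay at sites also listed under another gene.

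Of the 4 kinases that phosphorylate eIF2, 2 could be tested. EIF2AK2 encodes PKR, the kinase activated by double-stranded RNA, and its pair spans 7285 nt. Its proximal share was 61.8% in the control, 56.2% and 37.5% in the CFIm59 KO lines and 80.0% and 83.9% in the CFIm68 KO lines, and the groups did not overlap. It differed between the KO groups (log2 2.27, SE 0.57, adjusted p = 0.000663) and did not pass against the control (adjusted p = 0.115). EIF2AK1 encodes HRI, the heme-regulated kinase, and its sites lie 63 nt apart. Its proximal share was 68.4% in the control, 82.5% and 70.2% in the CFIm59 KO lines and 81.5% and 83.1% in the CFIm68 KO lines, so CFIm59 KO line 1 overlapped the CFIm68 KO lines. Its call in the CFIm68 KO (log2 1.10, SE 0.42, adjusted p = 0.0385) was lost without CFIm59 KO line 1 (0.0517), CFIm59 KO line 2 (0.0545) or CFIm68 KO line 2 (0.0579), with 0.0178 to 0.314 over the alternatives.

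eIF3, the largest initiation factor, is a scaffold of many subunits, and 9 of its 14 genes were tested. EIF3A and EIF3H changed toward the proximal site in the CFIm68 KO and EIF3C toward the distal one, and EIF3J and EIF3M joined EIF3A and EIF3H in the contrast between the KO groups. EIF3A encodes a core subunit, and 6.94% of its reads lay at sites also listed under another gene. Its pair lies at 120794560 and 120793185 on the minus strand of chromosome 10. Its proximal share was 82.4% in the control (78.3% to 85.8%), 72.1% and 79.0% in the CFIm59 KO lines and 97.9% and 93.9% in the CFIm68 KO lines, with no overlap between the groups. The CFIm68 KO differed from the control (adjusted p = 0.000679), with a log2 value of 1.69 without CFIm68 KO line 1 (adjusted p = 0.0486, with 1.49e-05 to 0.0486 over the alternatives), and from the CFIm59 KO by 2.97 (SE 0.51, adjusted p = 1.45e-06).

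EIF3H encodes another eIF3 subunit, and its distal site lies 2700 nt after the proximal one on chromosome 8. That distal site held 11 reads in the control library, 18 and 28 in the CFIm59 KO lines and 0 in both CFIm68 KO lines. These are 1.29% of the pair's control reads, 6% and 5.63% of those in the CFIm59 KO lines, and at most 0.455% and 0.580% in the CFIm68 KO lines at the limit of 3 reads that a count of 0 allows. The distal share was thus highest in the CFIm59 KO and undetected in the CFIm68 KO. EIF3H was the 1 initiation factor gene that passed in both contrasts with the control, toward the distal site in the CFIm59 KO (log2 −2.22, SE 0.56, adjusted p = 0.00738) and toward the proximal site in the CFIm68 KO (adjusted p = 0.000758). The first of these calls was lost with DESeq2 (adjusted p = 0.202) and without the read minimum (0.0502), in a range of 0.00179 to 0.202. It also passed between the KO groups (adjusted p = 3.45e-10).

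EIF3M encodes another eIF3 subunit, and its pair differed between the KO groups (adjusted p = 6.64e-05). Its proximal share was 86.8% in the control, 68.8% and 63.6% in the CFIm59 KO lines and 94.9% and 97.4% in the CFIm68 KO lines. Its distal counts were 9, 10, 20, 2 and 1 reads in the same order, so the depth is low. EIF3J, a loosely held subunit, was at 16.9% in the control, 10.0% and 9.59% in the CFIm59 KO lines and 28.3% and 25.2% in the CFIm68 KO lines. It differed between the KO groups with a log2 value of 1.73 (SE 0.48, adjusted p = 0.00214). Both genes had the control between the groups. For EIF3J, 2.84% of reads lay at sites also listed under another gene.

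EIF3C and EIF3CL are near-identical copies on chromosome 16 that encode the same core subunit, each with sites 131 nt apart, and reads may be split between them. The EIF3C distal site took 0.739% of the gene's control reads, 1.43% and 0.236% in the CFIm59 KO lines and 2.89% and 4.46% in the CFIm68 KO lines. For this copy alone the adjusted p was 0.00455 against the control, and 0.212 with the outermost sites. It was 0.000210 between the KO groups, and 0.0780 without CFIm59 KO line 2 (range 1.17e-05 to 0.0780). With both copies summed, the distal site held 16 reads (1.06%) in the control library, 10 (0.887%) and 7 (0.416%) in the CFIm59 KO lines and 37 (2.59%) and 55 (4.45%) in the CFIm68 KO lines. The CFIm68 KO lines stood above the other libraries. The log2 value of the summed pair was −1.73 against the control (SE 0.52, adjusted p = 0.00731) and −2.52 between the KO groups (adjusted p = 4.08e-06). The proximal site kept most reads of both copies in each library. Its lowest share of the reads at such sites was 93.2%, for EIF3C in CFIm68 KO line 2.

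Of the eIF4 genes, 9 pairs were tested. EIF4A2, an RNA helicase of the cap complex, was the one that passed in the CFIm68 KO against the control. Its proximal share was 16.9% in the control (14.1% to 20.1%), 16.8% and 14.3% in the CFIm59 KO lines and 29.6% and 34.6% in the CFIm68 KO lines, at sites 132 nt apart. The CFIm68 KO lines lay above the other 3 libraries (log2 1.20, SE 0.38, adjusted p = 0.0114). With the outermost sites of the gene in place of those with most reads, the sign turned (log2 −0.34, adjusted p = 0.800, the upper end of a range from 0.00354 over the alternatives). EIF4A1, the other helicase, had a proximal site in an upstream exon with 0.417% and 0.758% of reads in the CFIm68 KO lines against 2.20% and 3.76% in the CFIm59 KO lines and 1.65% in the control. That difference between the KO groups (log2 −2.42, adjusted p = 0.00293) was lost without CFIm59 KO line 2 (adjusted p = 0.121, range 0.00244 to 0.121), and 98.8% of the reads of EIF4A1 lay at sites listed under a second gene too. EIF4G3, which encodes a second form of the scaffold eIF4G, differed between the KO groups (adjusted p = 0.0371) but not without CFIm59 KO line 2 (0.590) or CFIm68 KO line 2 (0.251), with a range of 9.67e-07 to 0.590. Its proximal site is intronic.

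EIF4E encodes the cap-binding protein, the factor held back by the 4E-BPs, and its pair lies at 99801208 and 99801015 on the minus strand of chromosome 4. The proximal share of the pair was 64.5% in the control, 56.8% and 60.6% in the CFIm59 KO lines and 79.0% and 74.2% in the CFIm68 KO lines. It passed between the KO groups (log2 1.20, SE 0.36, adjusted p = 0.00405), though not with DESeq2 (adjusted p = 0.0741, range 1.16e-05 to 0.0741), and did not pass against the control (adjusted p = 0.113). The pair leaves out other sites of the gene, and these were tested one by one against the rest of the gene, a test added after the pairs had been examined.

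Sites averaging 5 or more reads were tested singly in edgeR, 19153 in all and 134 in the 34 genes. A site's share, here and below, is of the reads at the gene's tested sites, not of all its reads. In the CFIm68 KO against the control, 7 sites of initiation factor genes took a higher share of their gene's reads (6.4% of all sites did) and 11 a lower share (6.62% of all sites). The CFIm59 KO had 2 with a higher share (0.266% of all sites) and 0 a lower one (0.459% of all sites), with 5 lower at an unadjusted p under 0.05, and DESeq2 was not run on single sites. Between the KO groups the counts were 18 higher and 24 lower, against 16.1% and 13.5% of all sites.

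Of the 11 lower sites, 1 was the last tested site of EIF4E, 99800427, which lies 781 nt after the proximal site of its pair. It held 62 reads in the control (16.8% of the gene, 13.4% to 21.0%), 42 and 54 in the CFIm59 KO lines (24.1% and 21.1%) and 2 in each CFIm68 KO line (0.712% and 0.885%). The CFIm68 KO lines were far below the other 3 libraries, and the CFIm59 KO lines were above the control. The log2 difference from the control was −4.33 in the CFIm68 KO (adjusted p = 1.75e-07, with 2.59e-07 to 7.67e-05 over the alternatives). An EIF4E site upstream of the pair, 99801527, moved the opposite way, with 8.70% in the control, 4.60% and 6.25% in the CFIm59 KO lines and 27.4% and 25.7% in the CFIm68 KO lines (log2 1.61, adjusted p = 0.00277).

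In EIF1AX the last site of the pair (20142644) held 35.4% of reads at the gene's tested sites in the control. It fell to 9.06% and 10.1% in the CFIm68 KO lines (log2 −1.88, adjusted p = 2.22e-05). CFIm59 KO lines gave it 42.8% and 38.1%. The earlier site 20146328 rose from 64 reads (7.14%) in the control to 130 (21.4%) and 86 (13.8%) in the CFIm68 KO lines (log2 1.26, adjusted p = 0.0140). Its log2 value was 0.95 without CFIm68 KO line 1 and 1.58 without line 2, so the size of this rise rests in part on line 1. Another earlier site, 20146246, went from 3 reads (0.335%) in the control to 16 in each CFIm68 KO line (2.64% and 2.57%, adjusted p = 0.0100). The main proximal site was at 34.5% in the control and 48.6% and 53.7% in the CFIm68 KO lines, which did not pass (adjusted p = 0.266). In EIF3A the last site (120793185) went from 14.9% in the control to 1.46% and 3.90% in the CFIm68 KO lines (log2 −2.52, adjusted p = 0.000174), and the site at 120795267, 707 nt before the main one, from 1.28% to 8.29% and 11.7% (log2 2.92, adjusted p = 0.000505). The last site of EIF2S3 fell from 34.4% to 11.2% and 17.5% (adjusted p = 0.00197) and a late site of EIF3J, 44854999, from 16.4% to 7.56% and 2.27% (adjusted p = 0.00897). The EIF3J call was lost without CFIm68 KO line 2 (adjusted p = 0.173, range 0.00248 to 0.173), and the last tested site of EIF3J, with 7 reads in the control library, 3 and 9 in the CFIm59 KO lines and 5 and 4 in the CFIm68 KO lines, did not pass (adjusted p = 0.762).

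**Figure D2:**
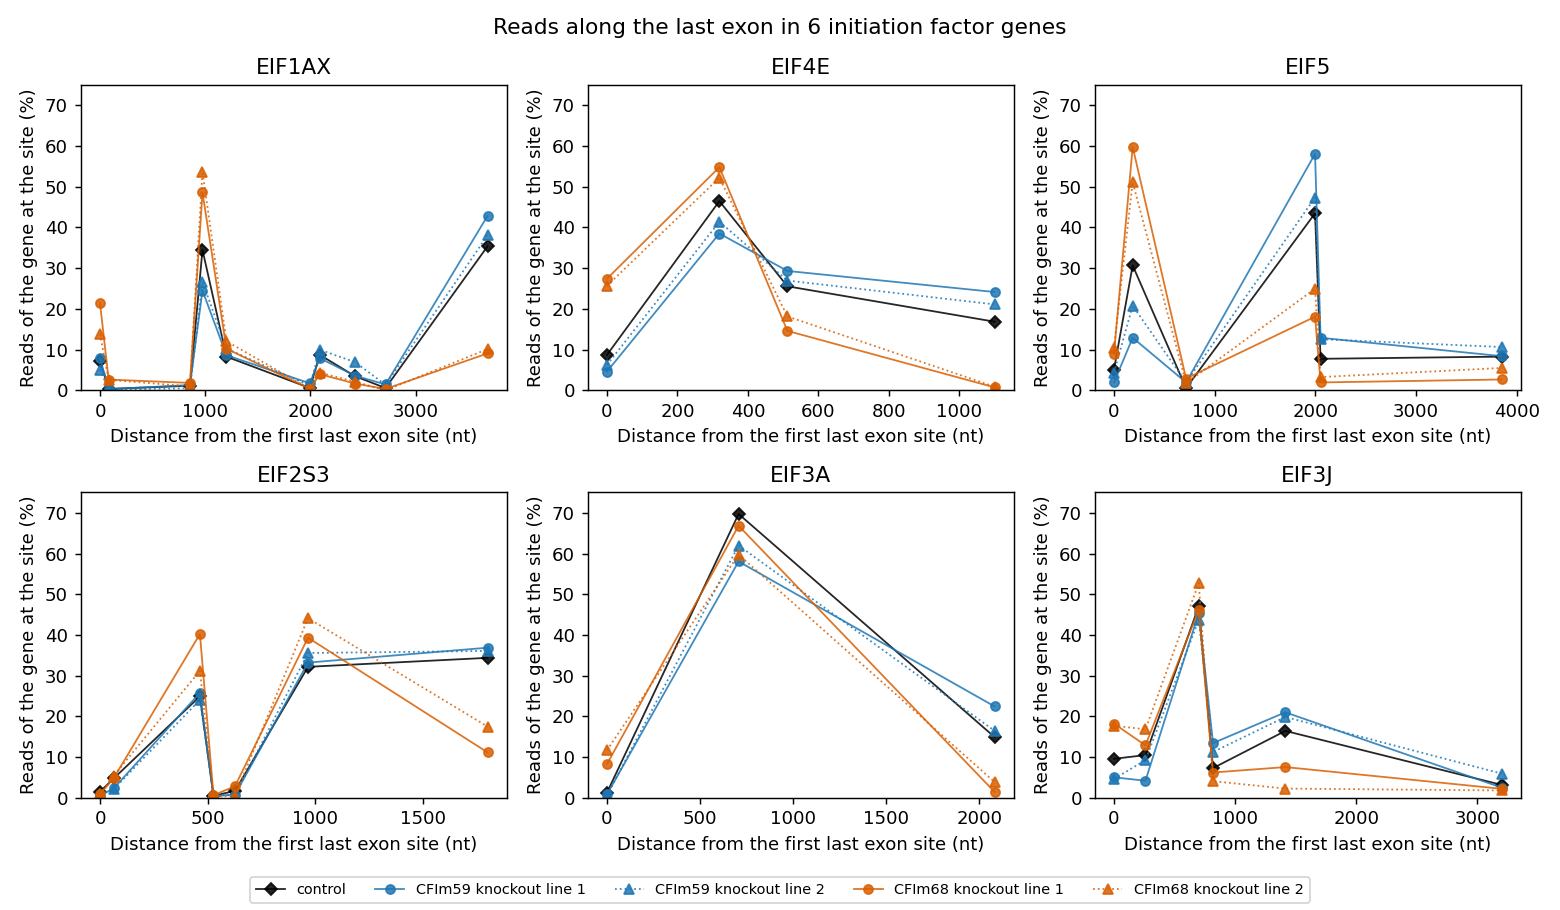
Percent of the reads at a gene's tested sites (y axis) that lay at each tested last exon site, with 1 line per library. The x axis is the distance in nt from the first of these last exon sites. Genes shown are EIF1AX, EIF4E, EIF5, EIF2S3, EIF3A and EIF3J. At the last site of EIF4E the CFIm68 KO lines are at 0.712% and 0.885%, against 16.8% to 24.1% in the other libraries.

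EIF3E encodes another eIF3 subunit, and its pair, 117 nt apart, did not pass in any contrast. Of 3 intronic sites of the gene, 2 were lower in the CFIm68 KO than in the control. The intronic site 28396 nt upstream of the last exon site with most reads held 19 reads in the control library (2.62%), 5 and 15 in the CFIm59 KO lines and 0 in both CFIm68 KO lines, where 3 reads would be 0.620% and 1.15% (adjusted p = 0.000854). A further intronic site held 21, 9, 11, 0 and 1 reads in the same order (adjusted p = 0.00268, and 0.114 without CFIm68 KO line 1, range 0.00219 to 0.114). The third intronic site had most reads of the 3. Of reads at the gene's tested sites it took 8.68% in the control library, 3.92% and 6.79% in the CFIm59 KO lines and 13.0% and 14.9% in the CFIm68 KO lines. It was higher in the CFIm68 than in the CFIm59 KO (log2 1.29, adjusted p = 0.00782) and did not pass against the control (adjusted p = 0.325). The last site of EIF3E was seen in 1 read in the control, 2 and 3 in the CFIm59 KO lines and 11 and 9 in the CFIm68 KO lines (adjusted p = 0.00390). A late site of EIF1AD, at 65759394 on chromosome 11, had 0 reads in the control, which allows up to 3.49%, 5 and 9 in the CFIm59 KO lines (14.3% and 13.0%) and 6 in each CFIm68 KO line (6.52% and 6.45%). This site was higher in both KO groups (adjusted p = 0.0453 and 0.0433), but the first call was lost without CFIm59 KO line 1 or line 2 (0.194 and 0.231) and the second without any 1 of the 4 KO lines (0.0502 to 0.0818).

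The 34 pairs had a median distance of 1218.5 nt, against 1376 nt over all genes tested. In 30 of them (88.2%) both sites were classed as last exon, against 79.7% of all genes. The class is given per site, so the sites of such a pair need not share 1 exon. Those of EIF2B3 lie 23690 nt apart, with an intronic site between them. The proximal site took a median of 53.0% of reads in the control, against 34.3% over all genes. All 9 initiation factor genes that changed in the CFIm68 KO had both sites classed as last exon. At distances from 1000 nt to under 4000 nt, 4 of 11 initiation factor genes changed toward the proximal site, against 42.5% of all such genes. From 250 nt to under 1000 nt it was 2 of 8 against 27.8%, at 4000 nt or more 0 of 7 against 17.6%, and under 250 nt 2 of 8 (EIF2AK1 and EIF4A2) against 4.92%.

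Transcript levels were taken as all reads of a gene, scaled by TMM to CPM, and 50 of the 55 genes could be tested among 14636. Reads per library cannot tell fewer cells with a transcript from less transcript per cell. In the control the tested genes ran from 5.60 CPM (EIF3J-AS1) to 892 CPM (EIF1), with a median of 141 CPM and 20 genes under 100 CPM. Each transcript gives 1 read site at its 3′ end, so these levels need no length correction. EIF2S3 (606 CPM), EIF3I (439 CPM), EIF5A (434 CPM) and EIF4G2 (412 CPM) followed EIF1, although with 1 control library their order has no error estimate. Of the 5 genes not tested, 1 had no read and the others had 1 (EIF2B5-AS1), 12 (EIF2S3L), 1 (EIF4E1B) and 15 reads (EIF5AL1) over all libraries.

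In the CFIm68 KO against the control, EIF3A and EIF3E fell, 2 of the 50 genes, where 2.03% of all genes were lower, and DESeq2 called 1. None rose with edgeR's quasi-likelihood test (1.59% of all genes were higher), with 3 at an unadjusted p under 0.05 and 0 by DESeq2. The median log2 difference was −0.11 over the 50 genes and 0.02 over all genes, and with library totals in place of TMM both moved up, to 0.12 and 0.26, so the sign of the first turned. Over all genes 232 were higher and 297 lower with TMM, and 430 and 120 with library totals. In the CFIm59 KO against the control, 7 of the 50 genes (14%) fell, against 6.87% of all genes, and EIF4G1 rose, against 6.98%. DESeq2 called 1 lower and 1 higher. The medians were −0.27 and 0.02, and −0.18 and 0.10 with library totals. Over all genes 1022 were higher and 1006 lower.

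Between the KO groups, 6 of the 50 genes (12%) were higher in CFIm68 KO cells (EIF1, EIF1B, EIF2A, EIF4E3, EIF5 and EIF5A2), against 9.46% of all genes. Lower were 4 (EIF1AX, EIF2S3, EIF3A and EIF4G1), or 8%, against 10.3%. The median was 0.15, against 0.001 over all genes, and 0.30 against 0.15 with library totals, where the split over all genes went from 1385 higher and 1503 lower to 1944 and 1035.

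**Figure D3:**
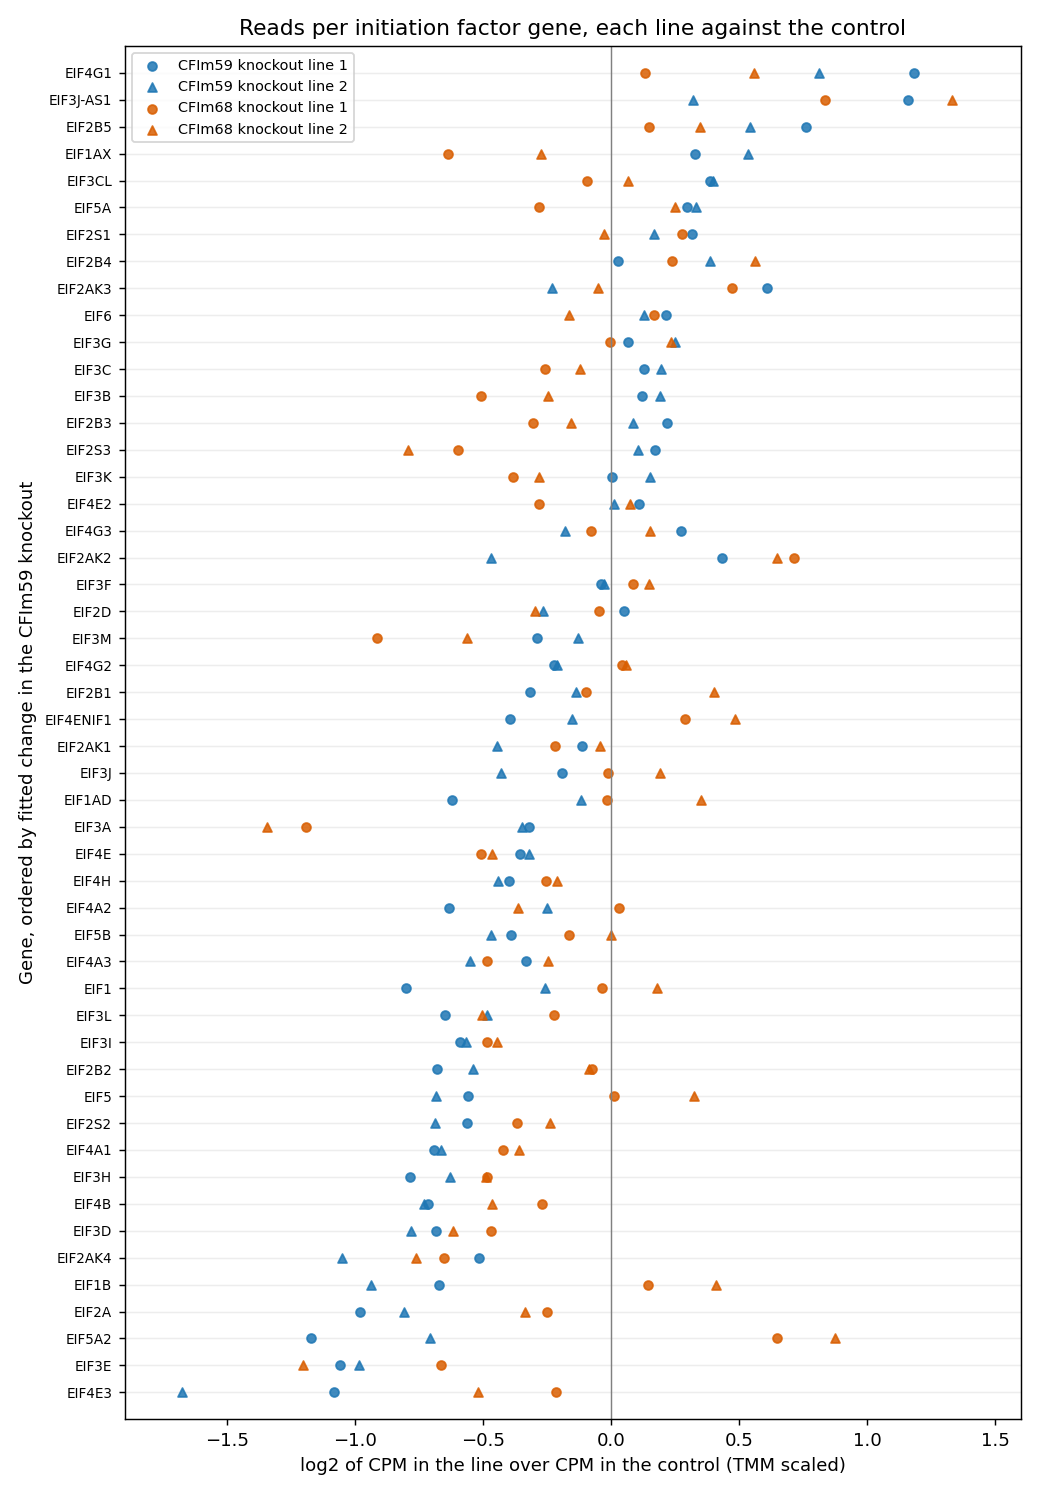
Log2 ratio of each KO line's CPM to that of the control (x axis, TMM scaling) for the 50 initiation factor genes tested (y axis), 1 point per line. EIF3A stands to the left in both CFIm68 KO lines, at 79.4 and 71.4 CPM against 181 CPM in the control, and EIF4G1 to the right in both CFIm59 KO lines, at 221 and 171 CPM against 97.1 CPM.

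EIF3A was at 181 CPM in the control library, 145 and 143 CPM in the CFIm59 KO lines and 79.4 and 71.4 CPM in the CFIm68 KO lines. Both CFIm68 KO lines were below the other 3 libraries, with a log2 difference of −1.26 from the control (SE 0.24, adjusted p = 0.000713) and −0.93 from the CFIm59 KO (SE 0.21, adjusted p = 0.000722). It is the 1 gene that both fell and changed toward its proximal site in the CFIm68 KO. The 44 other tested genes within 5 Mb of EIF3A had a median log2 difference of −0.53 in the same contrast, and those of the whole of chromosome 10 −0.16. Whether the region as a whole plays a part was not tested.

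EIF3E was at 279 CPM in the control library, 134 and 141 CPM in the CFIm59 KO lines and 176 and 121 CPM in the CFIm68 KO lines, so the 4 KO lines lay together below the control. It fell in the CFIm59 KO (log2 −1.02, SE 0.24, adjusted p = 0.00244) and in the CFIm68 KO (log2 −0.90, SE 0.24, adjusted p = 0.0214), both against the same control library. The second call was lost without CFIm68 KO line 2 (adjusted p = 0.146, with 0.000957 to 0.146 over the alternatives). EIF3D, the eIF3 subunit that can bind the cap, had 272 CPM in the control against 169 and 158 CPM in the CFIm59 KO lines (log2 −0.73, adjusted p = 0.0287), and EIF3H at 325 CPM and then 188 and 210 CPM (log2 −0.70, adjusted p = 0.0350). Either call was lost when 1 CFIm59 KO line was left out (EIF3D 0.105 and 0.174, in a range of 0.00951 to 0.174, and EIF3H 0.223 and 0.103, in a range of 0.0128 to 0.223). Genes within 5 Mb had a median of −0.43 around EIF3D, 0.79 around EIF3H and 0.15 around EIF3E in the CFIm59 KO.

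In the cap-binding group, EIF4G1, the scaffold that links eIF4E, eIF4A and eIF3, was at 97.1 CPM in the control library, 221 and 171 CPM in the CFIm59 KO lines and 106 and 143 CPM in the CFIm68 KO lines. It rose in the CFIm59 KO (log2 1.01, SE 0.27, adjusted p = 0.00633), though not without line 1 (adjusted p = 0.0823, range 0.000605 to 0.0823), and its neighbours within 5 Mb had a median of 0.29. The difference between the KO groups (log2 −0.65, adjusted p = 0.0203) was lost without CFIm59 KO line 1 (0.255) or CFIm68 KO line 1 (0.198), in a range of 0.00371 to 0.255. EIF4E3, a cap-binding relative of eIF4E, was at 32.9 CPM in the control library, 15.5 and 10.3 CPM in the CFIm59 KO lines and 28.3 and 22.9 CPM in the CFIm68 KO lines. It fell in the CFIm59 KO (log2 −1.38, SE 0.34, adjusted p = 0.00371), and not without line 2 (adjusted p = 0.0860, range 0.00122 to 0.160), and was higher in the CFIm68 than in the CFIm59 KO (adjusted p = 0.0111, and 0.239 without CFIm59 KO line 2 or 0.115 without CFIm68 KO line 1, range 0.00582 to 0.239).

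EIF4B, a partner of the helicase eIF4A, had 289 CPM in the control against 176 and 174 CPM in the CFIm59 KO lines (log2 −0.72, adjusted p = 0.0311), and EIF4A1 at 230 CPM and then 142 and 145 CPM (log2 −0.68, adjusted p = 0.0468). Both lines were below the control in each gene. Each call was lost without CFIm59 KO line 1 (EIF4B 0.139, EIF4A1 0.194) or line 2 (EIF4B 0.151, EIF4A1 0.173), with ranges of 0.0106 to 0.151 and 0.0203 to 0.194. EIF2A, a factor that can deliver tRNA to the ribosome without eIF2, was at 100.1 CPM in the control library, 50.7 and 57.2 CPM in the CFIm59 KO lines and 84.2 and 79.4 CPM in the CFIm68 KO lines (log2 −0.89 in the CFIm59 KO, SE 0.26, adjusted p = 0.0139, and 0.110 without line 1, range 0.00531 to 0.128). Its difference between the KO groups (adjusted p = 0.0471) was lost when any 1 KO line was left out (0.0644 to 0.277, where all alternatives span 0.0166 to 0.277), and with the line number as a block (0.0575).

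Genes that passed between the KO groups and against neither control contrast were EIF1, EIF1AX, EIF1B, EIF2S3, EIF5 and EIF5A2. EIF5A2, a paralog of the elongation factor eIF5A, had the highest difference, at 5.96 and 8.23 CPM in the CFIm59 KO lines, 13.4 CPM in the control and 21.1 and 24.7 CPM in the CFIm68 KO lines (log2 1.65, SE 0.35, adjusted p = 0.000350). EIF1B, a close paralog of EIF1, was at 26.2 and 21.8 CPM, 41.8 CPM, and 46.2 and 55.5 CPM in the same order (log2 1.09, SE 0.25, adjusted p = 0.00103). In both genes the control stood between the groups.

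EIF2S3 and EIF1AX went the opposite way. EIF2S3 was at 683 and 653 CPM in the CFIm59 KO lines, 606 CPM in the control and 400.4 and 350 CPM in the CFIm68 KO lines (log2 −0.83 between the KO groups, SE 0.19, adjusted p = 0.00119). EIF1AX was at 437 and 504 CPM, 348 CPM, and 224 and 288 CPM in that order (log2 −0.88, SE 0.20, adjusted p = 0.000830). Together with EIF3A these are genes whose proximal share was higher in the CFIm68 KO while their level was lower, and EIF1 and EIF5 had a higher proximal share and a higher level. EIF5 was at 99.6 and 91.3 CPM in the CFIm59 KO lines and 148 and 184 CPM in the CFIm68 KO lines (log2 0.80, adjusted p = 0.00378, and 0.0836 without CFIm59 KO line 2, range 0.000989 to 0.0836). EIF1 was at 511 and 746 CPM and then 870 and 1009 CPM (log2 0.58, adjusted p = 0.0319), which did not pass without CFIm59 KO line 1 (0.490) or CFIm68 KO line 2 (0.126), in a range of 0.00550 to 0.490.

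Messages of many translation factors begin with a C followed by a run of C and T, the 5′ terminal oligopyrimidine start read by LARP1 and mTOR signalling. The first bases of 5 such genes are shown because 3 of them (EIF2A, EIF3D and EIF4B) are among those that fell in the CFIm59 KO and 2 (EIF3F and EIF3K) have the longest runs among tested genes that did not pass. They are from RefSeq (GRCh38.p14, not the build of the poly(A) sites), 5′ to 3′ on the gene's strand, from 5 bases before the annotated start to 25 after, with the run from the first transcribed base in capitals.
EIF2A, chr3:150546782-150546811, plus strand: ggtttCTCTTTCCgggacaacatggcgccg
EIF3D, chr22:36529142-36529171, minus strand: gtttcCTCTTTTCCTggtttctcaagagtg
EIF4B, chr12:53006451-53006480, plus strand: cgggtCTTTTgcgttctctttccctctccc
EIF3F, chr11:7987332-7987361, plus strand: gcctcCTTCTTTCTCgacaagatggccaca
EIF3K, chr19:38619183-38619212, plus strand: accacCTCTTCCTgttcccgtccttgagga
A run of 5 or more bases, C first and then C or T, was found at 9 of the 58 annotated starts (15.5%) of the 43 initiation factor genes matched, and at 4.07% of the 35116 starts in the table. In the CFIm59 KO 3 of the 9 genes with such a run fell and the median log2 difference was −0.20. Of the 32 tested genes without one 2 fell and 1 rose, with a median of −0.24. In the CFIm68 KO the medians were −0.33 and 0.03, and none of these genes passed. Tested genes with no match in the table were EIF2AK1, EIF2S2, EIF3A, EIF3CL, EIF3E, EIF3G, EIF3H, EIF3J-AS1 and EIF3L. They include EIF3A and EIF3E, the genes that fell in the CFIm68 KO, and EIF3E and EIF3H of the 7 that fell in the CFIm59 KO. No test was made of the run.

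Other genes of translation were taken as a list of 61, and their poly(A) sites and levels were read in the same fits. Toward the proximal site in the CFIm68 KO went 8 of the 34 with a tested pair (ABCE1, DDX3X, DENR, ETF1, LARP4B, PAIP2, PPP1R15B and RHEB), close to the 25.3% of all genes, and EIF4EBP2 went toward the distal one (3.14% of all genes). DDX3X, a helicase that aids initiation, went from 6.77% proximal in the control to 65.0% ± 0.247 (SD, n = 2) in the CFIm68 KO (adjusted p = 2.47e-13). ETF1, the termination factor that reads stop codons, went from 31.0% to 88.4% ± 6.52 (adjusted p = 1.71e-10). DENR, which acts in reinitiation, was at 32.6% in the control, 8.67% ± 1.48 in the CFIm59 KO and 64.0% ± 4.10 in the CFIm68 KO, and passed in both contrasts with opposite signs (adjusted p = 0.00119 and 0.000282). TSC1, an inhibitor of mTOR signalling, was the other gene to pass in the CFIm59 KO, toward the distal site (adjusted p = 0.0360), where 5.38% of all genes were called. The KO groups differed for 15 of the 34, of which 14 had a higher proximal share in CFIm68 KO cells, against 40.7% of all genes, and 1 (LARP4) a lower one, against 6.2%.

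In level, 60 of the 61 could be tested. With the CFIm59 KO 9 fell (ASNS, ATF3, ATF4, DDIT4, MCTS1, MTIF2, PHGDH, PSAT1 and RHEB), against 6.87% of all genes. EEF1A2, GSPT2 and RPS6KB1 rose, against 6.98%. GSPT2 rose from 0 CPM in the control library to 8.94 and 11.1 CPM in the CFIm59 KO lines (adjusted p = 0.000314). In the CFIm68 KO 5 fell (ABCE1, ATF3, DDIT4, PHGDH and PSAT1), against 2.03% of all genes, and TSC2 rose, against 1.59%. DDIT4, a stress-induced inhibitor of mTOR signalling, fell from 317 CPM to 47.3 ± 2.28 CPM in the CFIm59 KO (log2 −2.75, adjusted p = 3.88e-12) and to 113 ± 26.8 CPM in the CFIm68 KO (log2 −1.48, adjusted p = 5.62e-05). ATF4 is the transcription factor whose translation increases when eIF2 is phosphorylated. Of ATF4 and 9 of its target genes, 5 fell in the CFIm59 KO (ASNS, ATF3, ATF4, PHGDH and PSAT1), against 6.87% of all genes, and 3 in the CFIm68 KO (ATF3, PHGDH and PSAT1), against 2.03%. ATF4 was at 510 CPM in the control library, 287 and 234 CPM in the CFIm59 KO lines and 332 and 458 CPM in the CFIm68 KO lines (log2 −0.97, adjusted p = 0.00324 in the CFIm59 KO, and adjusted p = 0.457 in the CFIm68 KO). Both contrasts share the 1 control library, and the list was chosen with earlier results of these data known.

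**Figure D4:**
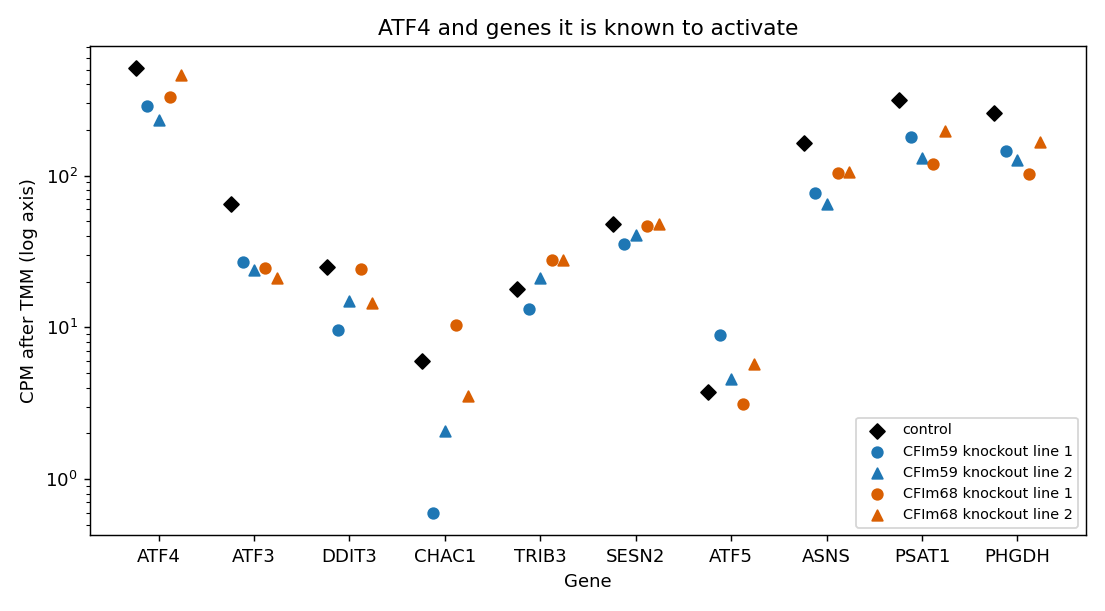
CPM (y axis, log scale, TMM scaling) of ATF4 and 9 genes known as its targets (x axis), 1 point per library. All 4 KO lines lie below the control for ASNS, ATF3, DDIT3, PHGDH, PSAT1 and SESN2, and for ATF4. ATF4 is at 234 to 458 CPM in these lines, against 510 CPM. SESN2 in CFIm68 KO line 2 is only just below, at 48.1 against 48.2 CPM. For ATF5, CHAC1 and TRIB3 the KO lines lie on both sides of the control.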

How the data were processed

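The authors deposited unnormalized counts of poly(A) site sequencing reads, 1 column per library, with hg19, TopHat2 2.1.0 and deepTools 2.4 named, without roles, in the submitters' processing notes. The site caller was not given in the sources used here. Sites of the table listed again under another gene (17824 of 290072 entries) held 0 reads, so a shared site's reads stand under its first gene. Library totals were 1673687 to 2924266 reads; without molecular identifiers, intervals and limits cover counting error only. Site pairs, single sites and gene sums were fitted over all genes with edgeR 4.0.16 in R 4.3.3 (quasi-likelihood test, 2-sided, Benjamini-Hochberg adjustment, threshold 0.05). All 5 libraries shared 1 spread per gene, so the lone control was assumed to vary like the KO lines, and p-values measure the spread between lines. Gene sums were filtered with filterByExpr and scaled by TMM. Single sites used diffSpliceDGE. The fits were tested on simulated data with made changes in the CFIm68 KO columns. At made log2 changes of −2, −1, 1 and 2 the site use fit called 40.68%, 3.23%, 8.62% and 40.38% in the right direction. The level fit called 95.45%, 36.84%, 42% and 100%. Of all calls in the simulation, 3.77% for site use and 2.21% for level were false. The simulated counts had 1 spread for all genes, the control included, and changes both ways in fewer genes than were called here. Level was simulated for 10970 genes averaging 20 or more reads. These shares may not hold for the real data. A gene that did not pass may thus still differ, above all in site use. The labels name no batch.

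The genes, role groups and lists were chosen with earlier results of these data known. Named were genes past the threshold in any of the 6 comparisons and the genes with the highest control levels. Of the other translation genes, those past the threshold against the control were named, and LARP4 between the KO groups. Up to 4 per comparison by adjusted p had been planned. Start sequences were read from RefSeq tables of GRCh38.p14. Alternatives were DESeq2 1.42.0, other scalings, read minimums and site choices, last exon sites only, a line-number block and leaving out each line. Single site tests, neighbouring genes and the sum of EIF3C and EIF3CL were added after the data had been seen.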

Additional observations from a re-analysis of the deposited data

How the results depend on the processing

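Counts of initiation factor genes are given as alternative against reported value. Toward the proximal site in the CFIm68 KO against the control, DESeq2 and the outermost sites of each gene both gave 5 against 8. Toward the distal site there, DESeq2 and minimums of 100 and 20 reads gave 0, the line-number block 2 and leaving out 1 line 1 to 3 (3 without CFIm68 KO line 1), against 1. In the CFIm59 KO against the control, leaving out 1 line gave 0 to 1 toward the proximal site (1 without CFIm59 KO line 1), against 0. Toward the distal site DESeq2, no read minimum and the stricter minimums gave 0, the outermost sites 2 and leaving out 1 line 1 to 2, against 1. Between the KO groups the stricter minimums gave 10 against 17 toward the proximal site and 0 against 3 toward the distal site, where leaving out 1 line gave 1 to 4 (1 without CFIm59 KO line 2). EIF4A2 reversed with the outermost sites, to −0.34 against the control and −0.48 between the KO groups, and the cause was not tested.

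For level, genes lower in the CFIm68 KO were 1 with DESeq2 and with library totals, and 1 to 2 with 1 line left out (1 without CFIm68 KO line 2), against 2. In the CFIm59 KO, lower genes were 1 with DESeq2, 3 with library totals and 2 to 11 with 1 line left out, against 7, and higher genes 0 to 1 (0 without CFIm59 KO line 1), against 1. Between the KO groups, higher genes were 3 with DESeq2 and 3 to 5 with 1 line left out (3 without CFIm59 KO line 2), against 6. Among single sites, leaving out 1 line gave 7 to 11 lower in the CFIm68 KO (7 without CFIm68 KO line 1), against 11, 0 to 2 higher in the CFIm59 KO, against 2, and 11 to 18 higher between the KO groups (11 without CFIm59 KO line 2), against 18. The line-number block gave 1 site higher in the CFIm59 KO.

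Lines with the same number deviated together with a correlation of 0.0068 over 10970 genes, so they share only a number; the block kept the side of the threshold for 30 of 30 site use results and 18 of 20 level results named. DESeq2 kept 21 of 30 and 9 of 20.

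Counts over all genes set the background and moved too. Toward the proximal and the distal site DESeq2 gave 746 and 37 in the CFIm68 KO (reported 1483 and 184), 8 and 13 in the CFIm59 KO (60 and 316), and 189 toward the distal site between the KO groups (364). The stricter minimums, which test fewer genes, gave 518 and 85, 36 and 203, and 752 (2390) and 148. No read minimum gave 114 distal in the CFIm68 KO and 34 and 128 in the CFIm59 KO, and the outermost sites 110 distal, 33 proximal and 237 distal in the order above. For level, higher and lower genes with DESeq2 were 15 and 63 in the CFIm68 KO (232 and 297), 284 and 318 in the CFIm59 KO (1022 and 1006) and 448 and 596 between the KO groups (1385 and 1503), and the block gave 118 and 178 in the CFIm68 KO. Leaving out 1 CFIm59 KO line lowered that KO's counts to 35 proximal, 129 distal and 610 lower in level at the least. Depth limits sites with few reads, such as the distal sites of EIF3H, EIF3M and EIF5B, and the lone control limits each contrast with it.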
